A study of Mus musculus with 12 samples.

Results

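The Serpin genes of the mouse were followed here across sorted fractions of the back skin epidermis. Members were all genes whose symbol in the array's annotation is Serpin, a clade letter from a to i and a number. Of 18193 genes measured, 40 met this rule. They comprised 14 genes of clade a, 18 of clade b, 2 each of clades f and i, and 1 each of clades c, d, g and h. Each gene was read from 1 probe set, that of highest mean signal among the probe sets assigned to that gene alone.

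All 12 samples came from mice with 4 alleles: the driver K5-tTA with its target pTRE-H2B-GFP, and the recombinase K14-CreER with its reporter Rosa-tdTomato. K5-tTA drives the histone label from the keratin 5 promoter, so only cells that have used that promoter can carry it, and K14-CreER places the recombinase under the keratin 14 promoter. For 2 weeks the mice had eaten food with 1 g/kg doxycycline, which stops synthesis of the label, had received a single dose of tamoxifen at 75 mg/kg, and were killed 1 week after it, at the second telogen. The BL fraction had 3 LRC and 3 non-LRC samples, and the SL fraction had 2 of each. A further 2 samples were of GL, which was not split by label. BL, SL and GL are read as basal, spinous and granular layer, and LRC as label-retaining cell, as the study is known to use them, since the labels do not spell them out. An LRC has kept its label because it divided seldom. The sources used here give neither the ages of the mice nor the sorting gates. Nor do the labels say that the samples are separate animals, so every p-value measures only the spread between these samples.

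Serpins inhibit proteases by a single use: the target cuts an exposed loop of the serpin, which snaps into the body of the molecule and traps the enzyme. Clade b serpins lack a classical signal peptide and act mostly inside cells, where they meet granule and lysosomal proteases. Most serpins of the other clades are secreted, many by the liver into plasma, where they control clotting, fibrinolysis and complement. A few serpins inhibit nothing, among them the collagen chaperone Serpinh1. In the epidermis, serine and cysteine proteases take apart the junctions between cornifying cells, and several clade b serpins are made by keratinocytes. In the mouse, clade b genes lie in 2 clusters, and of the members measured 7 lay on chromosome 1 and 11 on chromosome 13.

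The promoter windows of 4 clade b members are shown because the results turn on these genes. Serpinb12 and Serpinb2 differed between SL LRC and SL non-LRC, and Serpinb7 and Serpinb6a differed between GL and BL. The windows are from RefSeq on GRCm38.p6 and run from 250 bases before to 50 bases after an annotated start, 5′ to 3′ on the strand of the gene. Capitals mark matches, on either strand, to the AP-1 site TGANTCA, the TATA box TATAAA and the CCAAT box CCAAT.
Serpinb12, chr1:106934199-106934498, plus strand: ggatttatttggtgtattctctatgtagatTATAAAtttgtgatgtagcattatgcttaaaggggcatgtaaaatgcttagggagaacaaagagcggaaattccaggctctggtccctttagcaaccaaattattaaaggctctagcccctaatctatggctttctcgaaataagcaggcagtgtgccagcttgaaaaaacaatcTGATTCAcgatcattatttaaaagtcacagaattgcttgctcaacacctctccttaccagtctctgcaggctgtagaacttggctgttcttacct
Serpinb2, chr1:107511173-107511472, plus strand: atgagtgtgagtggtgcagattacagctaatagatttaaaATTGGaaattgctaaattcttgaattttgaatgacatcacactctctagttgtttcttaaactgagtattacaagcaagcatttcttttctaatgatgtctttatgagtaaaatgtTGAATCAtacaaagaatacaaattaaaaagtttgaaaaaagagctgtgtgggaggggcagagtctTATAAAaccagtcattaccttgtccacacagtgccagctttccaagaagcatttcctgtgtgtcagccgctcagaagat
Serpinb7, chr1:107422439-107422738, plus strand: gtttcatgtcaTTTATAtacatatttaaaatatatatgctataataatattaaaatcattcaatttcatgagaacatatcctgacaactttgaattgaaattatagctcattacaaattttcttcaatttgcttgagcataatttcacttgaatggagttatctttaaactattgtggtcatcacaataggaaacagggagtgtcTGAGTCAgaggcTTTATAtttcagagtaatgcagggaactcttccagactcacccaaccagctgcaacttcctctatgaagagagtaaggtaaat
Serpinb6a, chr13:34002745-34003044, minus strand: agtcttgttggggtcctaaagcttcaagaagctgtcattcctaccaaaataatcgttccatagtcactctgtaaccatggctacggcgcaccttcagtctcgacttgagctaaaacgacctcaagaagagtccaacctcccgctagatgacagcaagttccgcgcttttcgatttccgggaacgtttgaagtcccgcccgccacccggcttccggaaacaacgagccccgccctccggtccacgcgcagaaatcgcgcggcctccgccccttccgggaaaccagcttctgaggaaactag

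Serpinb12, Serpinb2 and Serpinb6a each have 2 windows in the table and the first is shown. The AP-1 match began at base -45 from the start in Serpinb12, at -94 in Serpinb2 and at -45 in Serpinb7. A TATA match lay at -29 in Serpinb2 and at -33 in Serpinb7, and Serpinb6a held none of the 3 motifs in the window shown. A window was found for 34 of the 40 members, 40 windows in all, and windows of 1 gene may overlap. The AP-1 letters were present in 7 of 21 clade b windows (33.3%), in 2 of 19 windows of the other clades (10.5%) and in 7.81% of 32851 windows of all genes. TATAAA was present in 33.3%, 21.1% and 13.6% of the same 3 sets, and CCAAT in 23.8%, 52.6% and 37.4%. These are matches of letters only.

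The values are linear intensities, scaled so that the 2% trimmed mean of each array is 500. Background was set per array at the 95th percentile of 27 probe sets for Bacillus subtilis transcripts, between 22.4 and 42.6 intensity units. Of all genes, 68.1% to 78.4% lay above it. Correlation across genes was 0.925 to 0.932 (Pearson's r) between replicate arrays. By the BioB hybridisation control the arrays form 2 sets: 4 arrays (BL LRC 1, BL non-LRC 1 and both SL non-LRC) averaged 495 units and the other 8 averaged 3370 units. In SL this set and the label state cannot be told apart. On BL LRC 1 and BL non-LRC 1, 0 of 3 Y-linked genes were above background, against 3 of 3 on every other array. The keratinocyte genes Krt5, Krt14, Krt1 and Krt10 were high on all arrays, also those of other layers, and Lor and Ivl were above background on all 12. Of the granular layer markers, 8 of 9 were higher and 1 was lower in GL than in BL. Of the basal markers, 6 of 10 were lower in SL than in BL. At the same threshold, an adjusted p under 0.05, 8.66% of all genes were higher and 8.41% lower in GL than in BL. Between SL and BL, 2.2% of all genes were lower in SL. Mki67, a gene of cycling cells, had 987 and 848 units in SL LRC, against 4080 and 3737 in SL non-LRC. The GL arrays also carried more signal of markers of other cells. Summed over 12 Langerhans and myeloid markers the signal was 45150 to 86259 units in GL, against 6260 to 21243 in SL and 4862 to 8239 in BL. Over 9 T cell markers it was 9583 to 28338 in GL, against 3403 to 5492 in SL and 4906 to 9505 in BL. Hair follicle markers moved with GL as well. Inner root sheath and hair shaft markers, 8 of 8 higher in GL than in BL, summed to 6406 to 7939 units in GL, against 973 to 1989 in SL and 176 to 422 in BL. Bulge markers, 7 of 9 higher, summed to 30896 to 31187 units in GL, against 5325 to 20430 in SL and 5153 to 11535 in BL. Melanocyte markers, 3 of 8 higher, summed to 2085 to 3167 units in GL, against 675 to 1335 in SL and 588 to 842 in BL. In sorted bulk RNA of this kind, fewer cells of a type and less RNA per cell cannot be told apart.

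Of the 40 Serpin genes, 26 were above background on all arrays of at least 1 group: 13 of the 18 in clade b and 13 of the 22 in the other clades. On all 12 arrays 9 members were above it. By array, 10 to 14 clade b members and 6 to 14 of the others were above background. Serpina1c, Serpina1f, Serpina3n, Serpina6, Serpina7 and Serpinb9g were not above background on any array. Serpina1b, Serpina5, Serpina10, Serpinb1b, Serpinb9b, Serpinb9c, Serpinb9d and Serpinf2 were above it on some arrays but not on all arrays of any group. The probe sets of Serpina1b, Serpina10, Serpinb3a, Serpinb6c, Serpinb6e and Serpini2 are marked by the manufacturer as liable to bind related transcripts, so these genes may share signal with close relatives. A further 3 probe sets that match several serpins at once were not used.

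**Figure D1:**
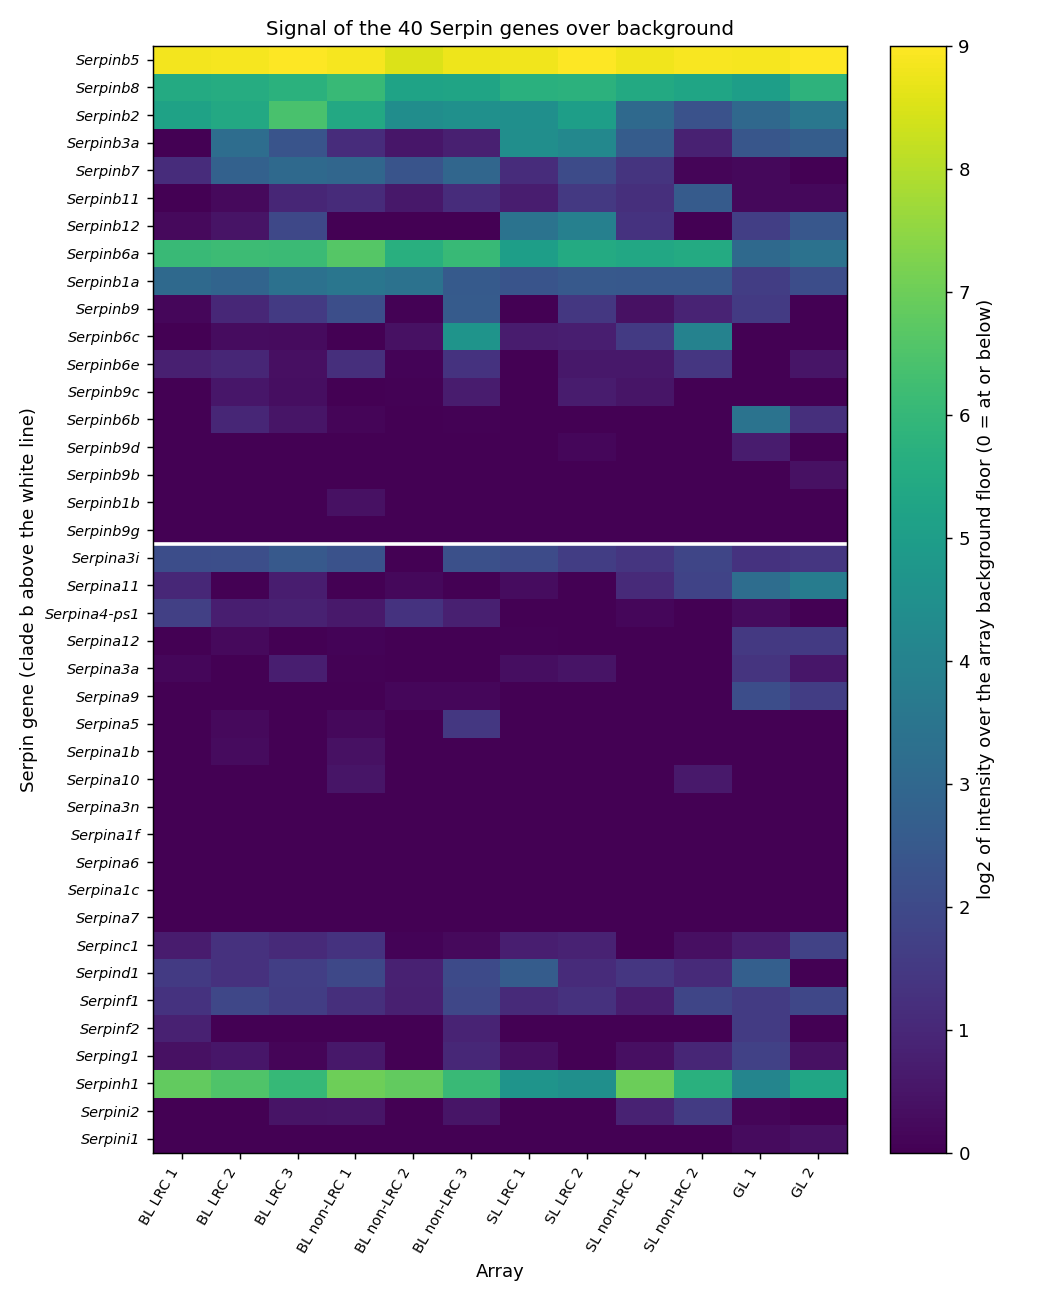
The colour gives log2 of intensity over each array's background floor for the 40 Serpin genes (rows, clade b above the white line) on the 12 arrays (columns), with values at or below the floor drawn as 0. Serpinb5, Serpinb8, Serpinb2, Serpinb6a and Serpinh1 were above the floor on every array, and 6 members were not above it on any.

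Serpinb2 was higher in label-retaining cells of the spinous layer. It encodes plasminogen activator inhibitor type 2, which blocks urokinase and tissue plasminogen activator. In the spinous layer it measured 948 and 1082 units in SL LRC, against 250 and 125 units in SL non-LRC. In the basal layer it measured 1253, 1270 and 2233 units in BL LRC, against 1099, 792 and 523 units in BL non-LRC, and in GL it measured 230 and 266 units. Every LRC sample lay above every non-LRC sample of its layer. The SL difference was 2.52 ± 0.39 on the log2 scale, or 5.74-fold (SE, limma adjusted p = 0.00138). The BL difference was 0.99 ± 0.32 and did not pass the threshold of 0.05 after adjustment over all genes (adjusted p = 0.185). The SL difference exceeded the BL difference by 1.53 ± 0.51 (limma adjusted p = 0.572), so a difference between layers was not shown.

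Serpinb12, too, was higher in SL LRC than in SL non-LRC. Its human counterpart inhibits trypsin-like serine proteases. It measured 455 and 494 units in SL LRC, against 73.9 and 4.92 units in SL non-LRC. In BL LRC it measured 40.6, 40.8 and 103 units, all above background, against 11.8, 4.66 and 9.23 units in BL non-LRC, none of them above background. In GL it measured 88.3 and 121 units. Again no LRC sample overlapped a non-LRC sample of its layer on the probe set used. The SL difference was 4.64 ± 1.04 on the log2 scale (SE, limma adjusted p = 0.0159), and since only 1 of 2 SL non-LRC arrays was above background no fold is given. Without SL non-LRC 2 it was 2.68 (adjusted p = 0.22), and without SL LRC 1 or SL LRC 2 the adjusted p was 0.107 or 0.105. In BL the signal was at least 1.99-fold higher in LRC, with a fitted difference of 2.80 ± 0.85 that missed the threshold (adjusted p = 0.145). A second, dimmer probe set of Serpinb12 gave 2.00 ± 1.13 for the SL difference (adjusted p = 0.413 in a fit over probe sets). In BL its groups overlapped, with 17.7 to 46.4 units in LRC and 3.51 to 38.9 in non-LRC. In GL it measured 2.76 and 9.58 units, below background. For GL against BL it gave -1.87 ± 0.93, where the probe set used gave 2.29 ± 0.85.

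Serpinb2 and Serpinb12 were the 2 members past the threshold between SL LRC and SL non-LRC, both higher, where 4.19% of all genes passed, 1.49% higher and 2.7% lower. Both are of clade b and both lie on chromosome 1. In BL, 0 of 40 members passed, where 1.53% of all genes did (0.308% higher and 1.23% lower). An unadjusted limma p under 0.05 was found there for 4 of 40 members (Serpina10, Serpinb2, Serpinb5 and Serpinb12) and for 2026 of all 18193 genes. Because BioB set and label state coincide in SL, the SL values were also fitted with the array set as a term, which rests on the BL arrays. Serpinb2 then differed by 2.69 (adjusted p = 0.0165) and Serpinb12 by 4.72 (adjusted p = 0.119). The low-BioB arrays of BL, BL LRC 1 and BL non-LRC 1, are also the arrays without Y-linked signal, which both SL non-LRC arrays had. In BL the term cannot tell the array set apart from that difference, so the part of the array set in SL remains untested.

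Other markers moved with the label too. Of the spinous markers, 5 of 10 rose and 1 fell in SL LRC, and 4 rose and 1 fell in BL LRC. Their sum was 175840 to 185139 units in SL LRC against 102914 to 120784 in SL non-LRC, and 115429 to 141848 units in BL LRC against 76908 to 101118 in BL non-LRC. Among them Krt1, a keratin of the spinous layer, rose by 1.12 ± 0.20 in SL LRC (SE, limma adjusted p = 0.00372). Summed over 11 infundibulum and sebaceous gland markers, the signal was 51907 to 57556 units in SL LRC against 101761 to 114914 in SL non-LRC, and 24129 to 27240 units in BL LRC against 46750 to 94841 in BL non-LRC. Of these 11 markers, 8 were lower in SL LRC and 9 in BL LRC. Of 12 Langerhans and myeloid markers, 4 were lower and 0 were higher in SL LRC. Their sum was 6260 to 7640 units, against 13516 to 21243 in SL non-LRC. Much of that sum was Epcam, at 4876 and 5606 units in SL LRC against 11684 and 9667 in SL non-LRC. The other markers called lower were Csf1r, H2-Aa and Cd74. Their differences were -5.41 ± 0.82, -2.09 ± 0.51 and -2.04 ± 0.51 (SE, limma adjusted p = 0.00112, 0.0255 and 0.0315). Csf1r measured 2.53 and 29.9 units in SL LRC, against 383 and 356 in SL non-LRC. Over the 12 markers the median log2 difference was -1.78, with 1 of 12 above 0. The Langerhans cell marker Cd207, near or below background, measured 33.1 and 32.2 units in SL LRC, against 10.6 and 26.1 in SL non-LRC. Of 9 bulge markers, 4 were lower and 1 was higher in SL LRC, with a sum of 5325 to 5887 units against 15586 to 20430 in SL non-LRC. In BL LRC 2 bulge markers were lower, with a sum of 5153 to 8483 units against 10711 to 11535 in BL non-LRC. Of 8 melanocyte markers, 2 were lower in SL LRC, with a sum of 675 to 688 units against 1303 to 1335 in SL non-LRC. The part of these cells, or of the spinous markers, in the Serpin differences was not tested.

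The other chromosome 1 members were mostly higher in SL LRC without passing the threshold. Serpinb3a, a mouse relative of the human squamous cell carcinoma antigens, measured 930 and 596 units in SL LRC, against 183 and 45.5 in SL non-LRC. In BL it measured 24.4, 277 and 133 units in LRC, against 56.8, 53.9 and 39.7 in non-LRC, and in GL 146 and 142. The SL groups did not overlap and the BL groups did. The SL difference was 3.03 ± 0.87 (SE, limma adjusted p = 0.0618), with a 95% interval of 1.19 to 4.87.

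Serpinb5 encodes maspin, a serpin that does not inhibit proteases. It measured 19192 and 17455 units in SL LRC, against 13122 and 12312 in SL non-LRC. In BL LRC it measured 15607, 13865 and 14220 units, against 12126, 13565 and 9955 in BL non-LRC. In GL it measured 12977 and 14778 units. On this probe set, LRC samples were the higher ones in each layer, without overlap. The SL difference was 0.53 ± 0.16 (SE, limma adjusted p = 0.0733). The other 3 probe sets of Serpinb5 gave SL differences of 0.92, 0.84 and 0.76, and 2 of them passed in a fit over probe sets (adjusted p = 0.0216 and 0.041). In BL the label states overlapped on these 2 probe sets. BL LRC 1 measured 6211 and 9354 units on them, against 7355 and 9826 in BL non-LRC 2.

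Serpinb8, whose human counterpart inhibits furin, measured 2259 and 1806 units in SL LRC, against 1293 and 1007 in SL non-LRC, a difference of 0.82 ± 0.28 (SE, limma adjusted p = 0.123). In BL it measured 1403 to 1572 units in LRC, against 872 to 1703 in non-LRC, and these groups overlapped. A second probe set of Serpinb8 gave 0.46 ± 0.27 for the SL difference (limma adjusted p = 0.427 in a fit over probe sets). On that probe set the BL groups did not overlap, with 824 to 1052 units in LRC against 590 to 775 in non-LRC. Furin itself fell in SL LRC, by 0.96 ± 0.26 on the log2 scale (limma adjusted p = 0.0428). Serpinb11, which inhibits trypsin-like proteases in the mouse, measured 69.4 and 90.9 units in SL LRC, against 68.1 and 153 in SL non-LRC, and its groups overlapped. Over the 7 chromosome 1 members the median SL difference was 1.30 on the log2 scale, with 6 of 7 above 0. Over the 11 chromosome 13 members it was -0.08, with 5 of 11 above 0, and over all genes it was -0.00, with 9075 of 18193 above 0. The chromosome 13 members include Serpinb1b, Serpinb9b, Serpinb9c, Serpinb9d and Serpinb9g, which were not above background on all arrays of any group. Every chromosome 1 member was above it on all arrays of at least 1 group. For BL LRC against BL non-LRC the medians were 0.30 on chromosome 1 and 0.12 on chromosome 13.

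**Figure D2:**
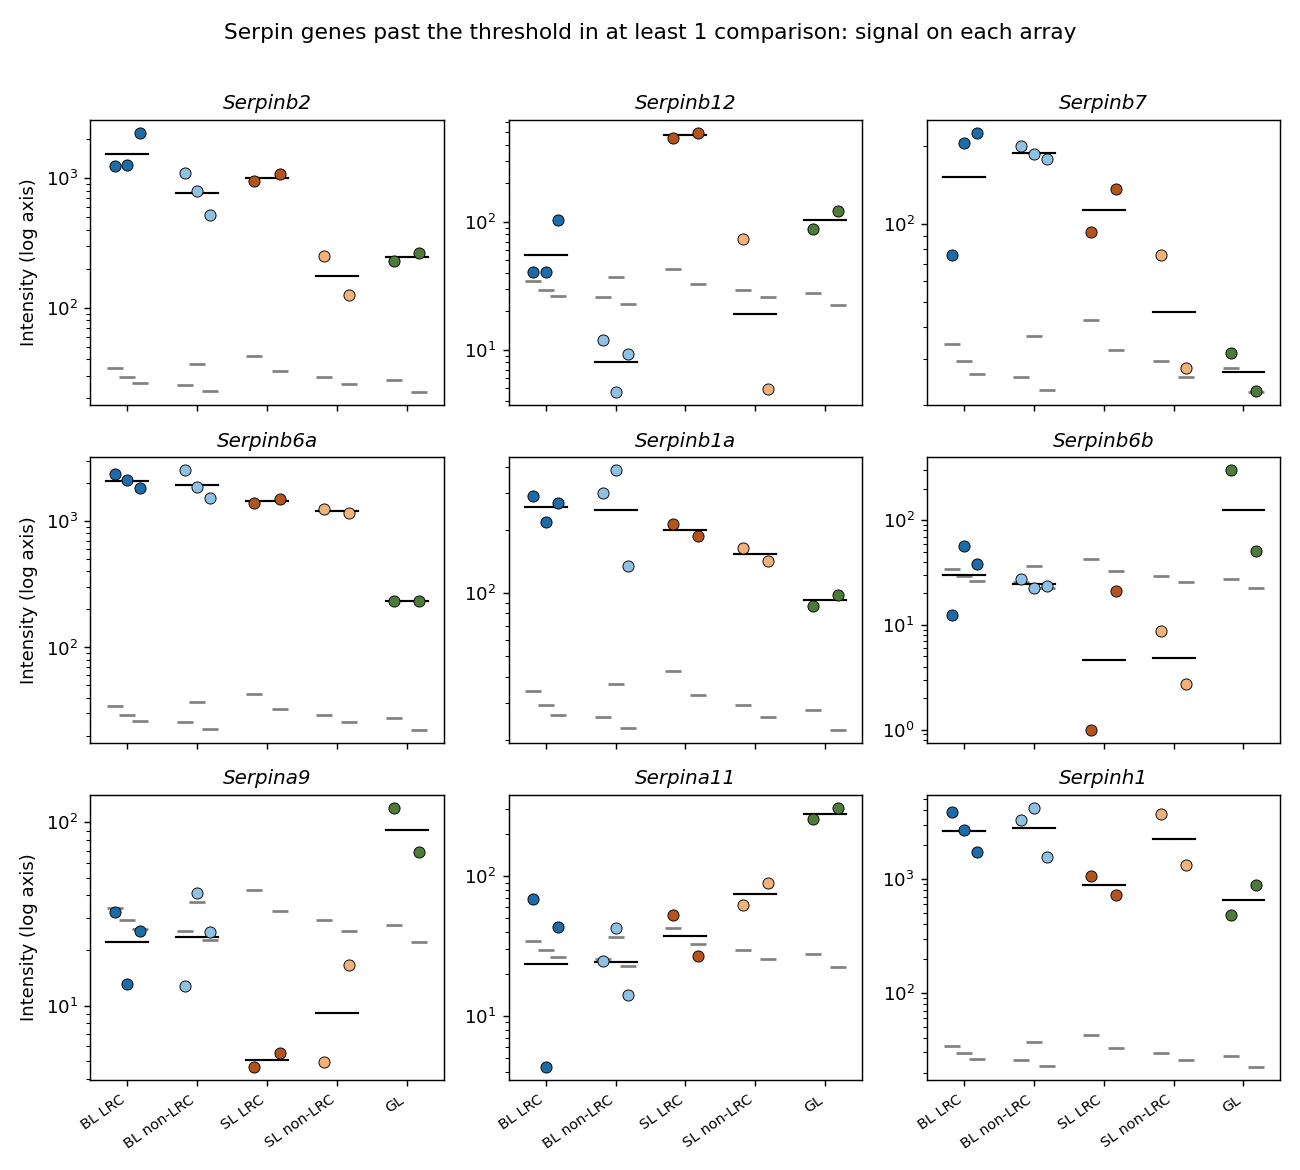
Points give the intensity of each array on a log axis for the 9 Serpin genes past the threshold in at least 1 comparison, by sorted group. Black bars mark the group mean of log2 values and grey dashes each array's background floor. All LRC points of Serpinb2 and Serpinb12 lie above the non-LRC points of the same layer, and Serpinb6a measured 233 and 234 units in GL, against at least 1169 units on every other array.

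Serpinb6a was lower in GL than in the other layers. Its human counterpart SERPINB6 inhibits cathepsin G and trypsin-like proteases inside cells. The gene measured 2363, 2112 and 1840 units in BL LRC and 2524, 1870 and 1514 in BL non-LRC. In SL LRC it measured 1405 and 1491 units, in SL non-LRC 1252 and 1169, and in GL 233 and 234. The 3 layers did not overlap, with BL highest and GL lowest. Relative to SL, GL fell by 2.50 ± 0.21 on the log2 scale, or 5.67-fold (SE, limma adjusted p = 2.02e-06). Relative to BL it fell by 3.11 ± 0.20, or 8.61-fold (adjusted p = 2.01e-08). SL differed from BL by -0.60 ± 0.16 (adjusted p = 0.0334), a smaller step that lost its call in 12 of 20 alternatives, among them leaving out any of the 4 SL arrays or BL LRC 1, BL LRC 2, BL non-LRC 1 or BL non-LRC 2 (adjusted p 0.0584 to 0.123). Between LRC and non-LRC, Serpinb6a differed by 0.12 ± 0.20 in BL and by 0.26 ± 0.24 in SL on the log2 scale, neither past the threshold.

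Serpinb2 also differed between layers. Its signal was 125 to 1082 units in SL, against 523 to 2233 in BL, and the groups overlapped. Averaged over label states, SL fell by 1.36 ± 0.25 relative to BL (SE, limma adjusted p = 0.00343). By label state, the difference of SL non-LRC from BL non-LRC was -2.12 ± 0.36 (adjusted p = 0.00445), and that of SL LRC from BL LRC was -0.59 ± 0.36 (adjusted p = 0.557). Within the 8 arrays of high BioB signal, SL is represented by SL LRC alone, while BL is still the mean of both label states. There the difference from BL was -0.04 (adjusted p = 0.966), and layer and label state cannot be told apart in it. On these arrays SL LRC measured 948 and 1082 units, BL LRC 1270 and 2233, and BL non-LRC 792 and 523. GL fell by 2.13 ± 0.32 relative to BL, or 4.38-fold (adjusted p = 0.000147), with no overlap. GL differed from SL LRC by -2.03 ± 0.39 (adjusted p = 0.00273) and from SL non-LRC by 0.49 ± 0.39 (adjusted p = 0.574). Serpinb2 and Serpinb6a were the 2 members past the threshold between SL and BL, both lower, where 5.03% of all genes passed, 2.83% higher and 2.2% lower.

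Serpinb7, known as megsin and in humans mutated in a hereditary palmoplantar keratosis, was lower in GL than in BL. It measured 76.1, 205 and 224 units in BL LRC and 200, 186 and 178 units in BL non-LRC. In SL LRC it measured 92.9 and 137 units, in SL non-LRC 75.7 and 27.7, and in GL 31.8 and 22.6. Both GL arrays lay below all BL arrays and just above background. Relative to BL, GL fell by 2.66 ± 0.55, or 6.30-fold (SE, limma adjusted p = 0.00231).

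Serpinb1a, which inhibits neutrophil elastase, cathepsin G and proteinase 3, measured 86.9 and 98.2 units in GL, against 135 to 384 units in BL and 143 to 214 in SL. GL overlapped neither. GL fell by 1.46 ± 0.40 relative to BL (SE, limma adjusted p = 0.0164). The second probe set of Serpinb1a gave a difference of 0.18 ± 0.67, and the mean of both missed the threshold (-0.64, adjusted p = 0.376). Without GL 1 or GL 2 the adjusted p was 0.132 or 0.0769, and within the 8 arrays of high BioB signal it was 0.0682.

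Serpinh1 encodes HSP47, the endoplasmic reticulum chaperone of procollagen, and was the 1 member outside clades a and b past the threshold. It measured 3906, 2675 and 1710 units in BL LRC and 3323, 4212 and 1556 units in BL non-LRC. In SL LRC it measured 1069 and 728 units, in SL non-LRC 3709 and 1331, and in GL 478 and 887. GL lay below every BL array, while SL overlapped both. Relative to BL, GL fell by 2.05 ± 0.40, or 4.15-fold (SE, limma adjusted p = 0.0016), and without GL 1 it fell by 1.61 (adjusted p = 0.0756). A second probe set of Serpinh1 gave -2.13 ± 0.28 for GL against BL. On that probe set SL differed from BL by -1.13 ± 0.22 (adjusted p = 0.00589 in a fit over probe sets), whereas the probe set used gave -0.95 ± 0.32 (adjusted p = 0.113). Fibroblasts also make this chaperone. Of 9 fibroblast markers, 2 were higher in GL than in BL, Dcn by 5.30 ± 1.23 and Mgp by 1.78 ± 0.33 (SE, limma adjusted p = 0.00586 and 0.00106), and 0 were lower, with a median log2 difference of 0.58. The 9 summed to 2546 to 6634 units in GL, against 3574 to 8024 in BL, and much of that sum was Thy1, which T cells also make. Col1a1 measured 116 and 92.2 units in GL, against 37.4 to 118 in BL. The part of fibroblasts in the Serpinh1 signal was not tested.

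The members Serpina11, Serpina9 and Serpinb6b were higher in GL. Serpina11, a clade a serpin, measured 255 and 309 units in GL, against 26.7 to 89.8 in SL and 4.32 to 68.7 in BL. Both GL arrays lay above all others. The difference of GL from BL was 3.55 ± 0.87 (SE, limma adjusted p = 0.00836), where only 3 of 6 BL arrays were above background. Without GL 1 or GL 2 the adjusted p was 0.074 or 0.0913. GL exceeded SL by 2.40 ± 0.92, which missed the threshold (adjusted p = 0.133).

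Serpina9, known as centerin in human germinal centre B cells, measured 120 and 69.1 units in GL, against 4.62 to 16.6 in SL and 12.8 to 41.3 in BL. No SL array was above background. GL was at least 2.85-fold higher than SL (fitted log2 difference 3.75 ± 0.86, limma adjusted p = 0.0116), and without GL 1 or GL 2 the adjusted p was 0.151 or 0.0501. Against BL the fitted difference was 1.99 ± 0.81 (adjusted p = 0.112).

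Serpinb6b, a paralogue of Serpinb6a on the same chromosome, measured 300 and 51.4 units in GL, against 1.00 to 21.2 in SL and 12.4 to 57.0 in BL. GL lay above all of SL, where no array exceeded background, and overlapped BL. GL was at least 3.88-fold higher than SL (fitted log2 difference 4.71 ± 1.15, limma adjusted p = 0.0167). Without GL 1, the array that also had the highest T cell and Langerhans sums, the difference was 3.44 (adjusted p = 0.278), and without SL non-LRC 2 it was 4.28 (adjusted p = 0.0527). It was also lost with values under 32 raised to 32 (1.96, adjusted p = 0.0949) and with the array set as a term (4.30, adjusted p = 0.0663). Cd3e, a T cell receptor subunit, measured 6784 units on GL 1 and 1894 on GL 2, and Cd207, the Langerhans cell lectin, measured 995 and 403 units. Inner root sheath, bulge and melanocyte markers were higher on the GL arrays too, as given above. The part of all these cells in the Serpin differences of GL was not tested.

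In all, 3 members passed between GL and SL, where 8.3% of all genes passed, and 6 passed between GL and BL, where 17.1% did. From GL against SL these were Serpinb6a, lower, and Serpina9 and Serpinb6b, higher. From GL against BL these were Serpinb6a, Serpinb2, Serpinb7, Serpinb1a and Serpinh1, lower, and Serpina11, higher. Background by direction was 8.66% higher and 8.41% lower in GL against BL, and 4.39% higher and 3.91% lower in GL against SL.

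The remaining members above background in a whole group showed no call. Serpinb9, the granzyme B inhibitor, ranged from 19.5 to 135 units over the 12 arrays. Serpinb6e ranged from 18.9 to 69.4 units. Serpinb6c was uneven within groups, with 23.1, 49.4 and 578 units in BL non-LRC and 85.6 and 404 units in SL non-LRC, against 18.5 to 69.0 units in the LRC samples of both layers and 20.8 to 23.0 in GL. It was high on 2 arrays only, both non-LRC, and its GL against SL difference of -2.29 ± 0.99 missed the threshold (limma adjusted p = 0.195). Serpina12, known as vaspin, is an inhibitor of the kallikrein KLK7 in humans. It measured 77.5 and 65.2 units in GL, against 17.8 to 44.3 in SL and 3.94 to 34.5 in BL. Its GL against BL difference of 2.26 ± 0.87 missed the threshold (adjusted p = 0.0919), and its second probe set gave -1.06 ± 0.96. Serpina3i measured 35.5 to 176 units, Serpina3a 3.29 to 70.3 and the pseudogene Serpina4-ps1 8.39 to 113.

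The members of clades c to i other than Serpinh1 showed no call either. Serpinc1, antithrombin, measured 23.6 to 75.7 units over the 12 arrays. Serpind1, heparin cofactor II, measured 10.8 to 261 units, its lowest and its second highest value both in GL. Serpinf1, the non-inhibitory pigment epithelium-derived factor, measured 49.1 to 112 units. Serping1, the inhibitor of complement C1 and kallikrein of plasma, measured 24.5 to 93.6 units. Serpini1, neuroserpin, measured 6.81 to 33.2 units and Serpini2 4.87 to 75.5. None of these 6 passed the threshold in any of the 6 comparisons.

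Clade b and the other clades are set side by side by counts and medians. Between SL LRC and SL non-LRC, 2 of 18 clade b members (11.1%) passed, both higher, and 0 of 22 others, where 4.19% of all genes passed. The median log2 difference was 0.38 for clade b, -0.30 for the others and -0.00 for all genes. With a replicate left out it was 0.35 to 0.69 for clade b and -0.63 to -0.05 for the others. Between SL and BL, 2 of 18 clade b members (11.1%) passed, both lower, and 0 of 22 others, where 5.03% of all genes passed. The medians were -0.19, -0.04 and 0.00. With a replicate left out, the first ranged from -0.58 to 0.13 and the second from -0.14 to 0.15, so neither kept its sign.

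For GL against BL, 4 of 18 clade b members (22.2%) passed, all lower, against 2 of 22 others (9.09%), 1 in each direction. Of all genes 17.1% passed, 8.41% of them lower as a share of all. The medians were -0.79 for clade b, 0.20 for the others and -0.02 for all genes, with 5 of 18 clade b members and 13 of 22 others above 0. For GL against SL, 2 of 18 clade b members (11.1%) passed, 1 in each direction, and 1 of 22 others (4.55%), which was higher. Of all genes 8.3% passed. The medians were -0.63, 0.26 and -0.03. Without GL 2 the median of the others was 0.98 against BL and 0.91 against SL, and leaving out other single arrays took it down to -0.15 and 0.16. With values under 32 raised to 32, the clade b median for GL against BL was -0.25. For BL LRC against BL non-LRC the medians were 0.20, -0.12 and 0.05, and with a replicate left out the first ranged from -0.02 to 0.20 and the second from -0.33 to -0.01. In the test of the SL label difference against the BL label difference 0 members and 0 of all genes passed (0%), with 1291 genes and 2 members, Serpina3n and Serpinb2, at an unadjusted limma p under 0.05. Serpina3n was not above background on any array.

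**Figure D3:**
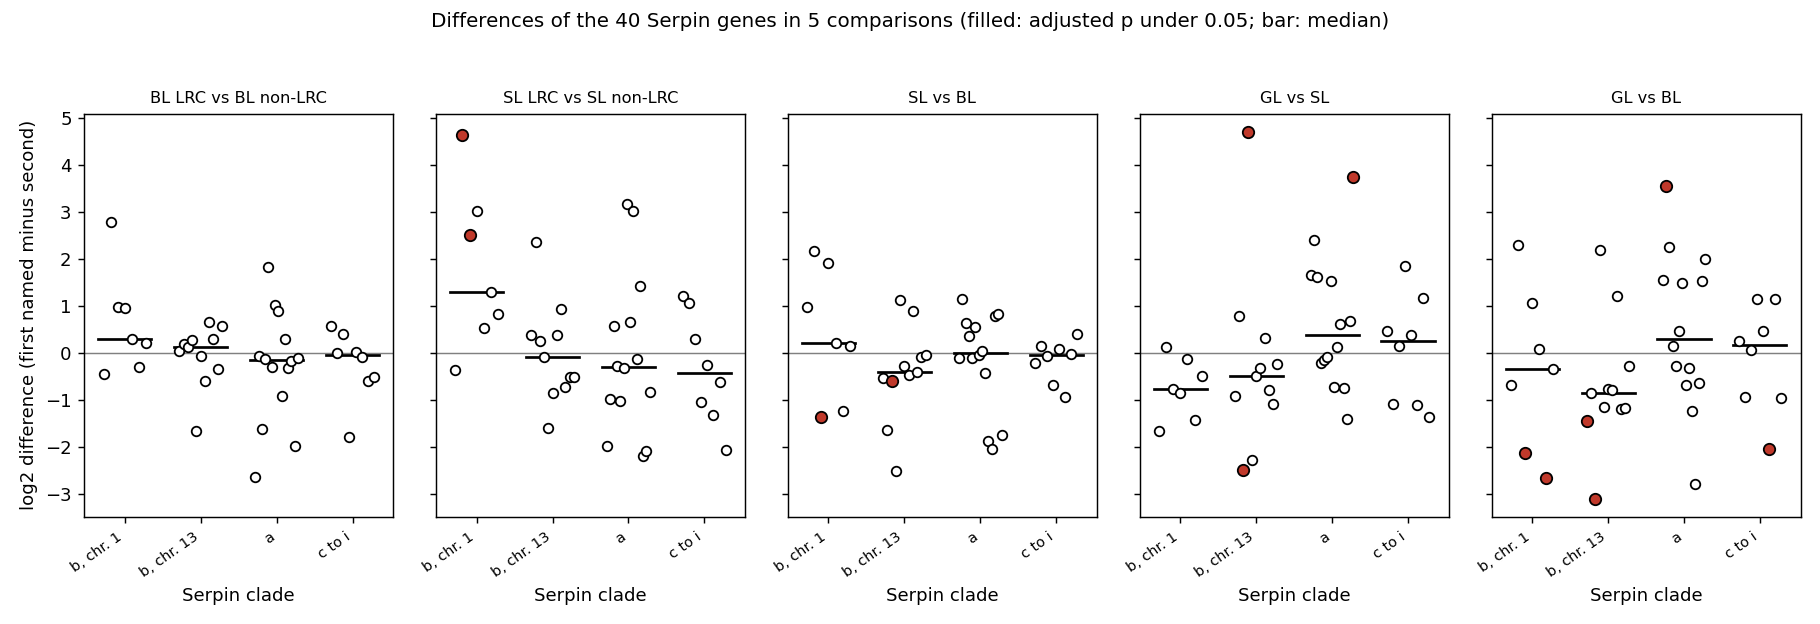
Each point is the log2 difference of 1 Serpin gene, first-named group minus second, in 5 comparisons, by clade and, for clade b, by chromosome (7 genes on chromosome 1, 11 on chromosome 13). Filled points passed an adjusted p of 0.05 and bars are medians. In SL LRC against SL non-LRC the chromosome 1 genes had a median of 1.30 and the chromosome 13 genes of -0.08. In BL LRC against BL non-LRC these medians were 0.30 and 0.12. All clade b genes not above background in any whole group are on chromosome 13.

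Proteases that serpins act on, and inhibitors of other families, were followed as lists. The plasminogen activators are the known targets of Serpinb2. Urokinase, Plau, measured 5895 and 5161 units in SL LRC, against 3333 and 1991 in SL non-LRC, and rose by 1.10 ± 0.26 (SE, limma adjusted p = 0.0234). In BL it measured 3556, 2710 and 3171 units in LRC, against 2684, 2522 and 1594 in non-LRC, a difference of 0.50 ± 0.21 that missed the threshold (adjusted p = 0.374). Tissue plasminogen activator, Plat, rose in BL LRC by 1.11 ± 0.24 (adjusted p = 0.0245). In GL, Plat rose over SL by 1.45 ± 0.25 (adjusted p = 0.00159). Of 9 genes of plasminogen activation, 1 was higher in each label comparison and none lower, and 1 was higher and 2 lower in GL against both SL and BL.

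Kallikreins are secreted serine proteases, some of which cut corneodesmosomes. Of 10 measured, 1 was higher and 1 lower in SL LRC, and 1 was higher and 0 lower in BL LRC. Klk7 measured 1090 and 1134 units in SL LRC, against 5963 and 3665 in SL non-LRC, and fell by 2.07 ± 0.31 (SE, limma adjusted p = 0.00103). Klk11 ran the other way, 2.12 ± 0.30 higher in SL LRC (adjusted p = 0.00074) and 1.27 ± 0.25 higher in BL LRC (adjusted p = 0.0125). Of 10 kallikreins, 3 rose in SL against BL and 4 in GL against BL, and none fell; Klk7 rose by 4.83 ± 0.25 and Klk5 by 3.53 ± 0.25 in GL against BL.

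Cysteine cathepsins, lysosomal proteases that several clade b serpins can trap, were lower in SL LRC for 4 of 10 members. The difference was -1.70 ± 0.28 for Ctsl (SE, limma adjusted p = 0.00226) and -0.65 ± 0.14 for Ctsb (adjusted p = 0.014). It was -4.10 ± 0.89 for Ctsz (adjusted p = 0.013), with 0 of 2 SL LRC arrays above background, and -3.59 ± 0.93 for Ctss (adjusted p = 0.0371). As given above, 4 of 12 Langerhans and myeloid markers were lower in SL LRC too. In GL, 6 of 10 rose over SL, among them Ctss by 5.51 ± 0.81 and Ctsw by 4.96 ± 1.00, both genes known from leukocytes. Of 16 granzymes and other leukocyte serine proteases, 1 rose in GL over SL, Gzmc, by 4.01 ± 0.79 (adjusted p = 0.0039). These cathepsins and Gzmc were higher on the same GL arrays as the T cell, Langerhans, inner root sheath, bulge and melanocyte markers given above. The part of any of these cells in the protease differences was not tested. Of 16 membrane and other epidermal serine proteases, 2 were higher and 2 lower in SL LRC, and 3 were higher and 1 lower in GL against BL, where Htra1 fell by 2.11 ± 0.22. Of 14 clotting and complement proteases, none passed in either label comparison or between SL and BL, and 2 were lower in GL against BL (C1s1 and F2).

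Inhibitors of other families were measured beside the serpins. Of 19 Kazal, Kunitz and WAP inhibitors, 7 rose and 0 fell in GL against BL, and 3 rose in SL against BL, among them Spink5, the kallikrein inhibitor lost in Netherton syndrome, by 2.03 ± 0.44 (SE, limma adjusted p = 0.0114). Of 7 cystatins, inhibitors of cysteine proteases, 5 rose and 1 fell in GL against BL. Cst6 rose by 2.59 ± 0.20 in SL against BL and by 3.49 ± 0.26 in GL against BL, and it fell by 1.35 ± 0.26 in BL LRC. The share of all genes past the threshold in each comparison, given above with the Serpin counts, is the background for these lists too.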

How the data were processed

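Per the labels' protocols, 5 ng of RNA per sample was amplified by NuGEN's Ovation Pico kit and labelled with biotin; it was hybridised to 12 single-colour arrays. The deposited intensity values are on a linear scale that starts at 1 and had been scaled by the authors: the 2% trimmed mean recomputed here is 500 on each array. The summarisation software is not given in the sources used here. Log2 was taken with nothing added, although the design had assumed deposited log2 values. Of 45101 probe sets, 34945 carry 1 gene in the platform annotation, and the one of highest mean represents each of 18193 genes. All 40 member symbols were unchanged in RefSeq.

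limma 3.58.1 in R 4.3.3 fitted 5 group means over 12 arrays, with trended eBayes moderation, and p-values were adjusted by Benjamini-Hochberg across all genes at 0.05. Errors are moderated standard errors. SL and BL are means of both label states, and comparisons that use the same arrays share them. A level never above background on 1 side gives a lower bound ("at least"): the brighter side's mean against the dimmer side's mean of the higher of floor and signal. Named are members past the threshold, the 10 of highest mean signal, those above background in a whole group by range, and up to 4 called genes of smallest p per list and comparison; Plau in BL was named for its SL call. The script was tested on simulated data. Members and lists were chosen with earlier results of these data known. Python 3.11.15, pandas 2.3.3 and matplotlib 3.10.9 were also used.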

Additional observations from a re-analysis of the deposited data

How the results depend on the processing

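Alternatives were another normalization (arrays centred on medians, quantile), a filter on dim genes, values under 32 raised to 32, other choices of probe set, no mean-variance trend, the replicate number as a block, the array set as a term or the arrays of high BioB signal alone, and leaving out each replicate. With SL represented by SL LRC alone and BL by both label states, the arrays of high BioB signal were an alternative chosen after seeing the data. Members called in the report kept their direction under all of these. For SL LRC against SL non-LRC the count of 2 members called was 0 without the trend and 1 with the array set as a term, and 1 to 3 with a replicate left out. For SL against BL the count of 2 was 0 without the trend and 1 to 4 with a replicate left out, 4 of them without SL non-LRC 2. For GL against SL the count of 3 was 6 with values raised to 32 and 7 in the arrays of high BioB signal. The median of the other clades ranged over 0.16 to 0.91 in GL against SL and over -0.15 to 0.98 in GL against BL with a replicate left out, the highest without GL 2, and the clade b median for GL against BL was -0.25 with values raised to 32. Over all genes, the count without the trend was 150 against 763 in SL LRC against SL non-LRC, 72 against 279 in BL LRC against BL non-LRC, 374 against 915 in SL against BL, and 713 against 1510 in GL against SL. The array-set term gave 320 in place of 763. Raising values to 32 gave 429 in place of 763 and 78 in place of 279, centring on medians gave 446 in place of 279, and the arrays of high BioB signal gave 136 in place of 279. Serpinb6a in GL against SL kept its call in all 16 alternatives, and Serpinb6a, Serpinb2 and Serpinb7 in GL against BL kept theirs in all 18. Serpinb2 between the SL label states lost its call only without the trend (adjusted p = 0.0502), in 1 of 13 alternatives, and Serpinb12 in 5 of 13. The cause of these changes was not tested.

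Same-numbered BL samples deviated together weakly (r = 0.0913 to 0.173). Within BL each correlated best with its own number, a hint from the data and not the design. Across layers, BL non-LRC 3 had an r of 0.1003 with SL non-LRC 2, against 0.0994 with BL LRC 3. The pair of highest r, BL LRC 1 and BL non-LRC 1, also shared the low BioB set and the lack of Y-linked signal, which cannot be told apart from the number. With the replicate number as a block, 2 members were called between the SL label states, 3 between SL and BL, 3 between GL and SL, 6 between GL and BL and 0 between the BL label states, and Serpinb2 between the SL label states had an adjusted p of 0.00173. With 2 or 3 arrays a group, and signals of many members near background, small differences were not detectable.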
